A study of Mus musculus with 15 samples.

Results

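The 39 genes described here copy DNA, mend it, or hold the cell cycle while that is done. They were taken by symbol from a table of centred log2 expression values for 17271 genes in 15 mouse mammary tumours, and all 39 were found in it. They comprise 19 replication genes, 3 E2F transcription factors and 17 repair and checkpoint genes. All tumours were labelled p53 null and came from Balbc mice, and they fall into 4 models, of which 2208L has 8 samples, 2151R has 4, 2225L has 2 and T11 has 1. Of the 2208L samples, 4 were titled PBS, 3 were titled 3day nt and 1 was titled ROSEN. In 2151R, replicates 3 and 4 were titled NT2 and NT and replicates 1 and 2 bear other codes, and the titles of 2225L read T-Vivo and ROSEN. What these words stand for, the age of the mice and any treatment are not given in the sources used here. These models are known as tumour lines passed between mice by transplantation, so samples of a model share a tumour of origin. Nothing says that replicates came from separate animals, and p-values then measure only the spread between these samples, which may be technical.

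Replication begins when Cdc6 and Cdt1 load the ring of Mcm2 to Mcm7 onto origins. Cdc45 and the GINS complex, which includes Gins1 and Gins2, then join the ring to make the working helicase, with Mcm10 helping it to fire. Polymerase epsilon, with Pole as its catalytic subunit, copies the leading strand, the sliding clamp Pcna holds polymerases on DNA, and Lig1 seals the lagging strand. Rrm1 and Rrm2 are the subunits of ribonucleotide reductase, and Tyms and Tk1 supply thymidine nucleotides. Breaks in copied DNA are mended by homologous recombination, in which Brca1, Bard1, Palb2 and Brca2 load the recombinase that Rad51ap1 and Rad54l assist, while Exo1 trims ends and Blm unwinds intermediates. Fanca belongs to the Fanconi anaemia core complex, which marks Fancd2 and Fanci when strands are crosslinked. Atm and Atr sense damage and signal through Chek2 and Chek1. Many of these genes are textbook targets of E2F factors, among which E2f1 and E2f2 activate and E2f8 represses. In tumours without p53 the checkpoint arm that depends on p53 is missing.

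The promoters of 4 members, each of them higher in 2151R than in 2208L, are shown first, to be read beside their values. They are those with a window among the pair of members of each list that differed most in this comparison. Windows from 250 bases before to 50 bases after a start were matched by symbol for 33 of the 39 members and for 12100 genes of the table (RefSeq, GRCm38.p6, the assembly also called mm10). Both strands were searched for 4 E2F sequences (TTTGGCGC, TTTCCCGC, TTTCGCGC, TTTGCCGC), for the cell cycle homology region (TTTGAA) and for the CCAAT box (CCAAT). Where a gene had several windows, as 4 members did, the first listed was used. The 200 bases before the start of that window follow, 5′ to 3′ on the gene's strand, with every match in capitals. This start need not be the outer end of the gene. The stretches of E2f8 and Brca2 lie inside the RefSeq spans of these genes, which end at 48882073 and begin at 150522297.
Mcm10, chr2:5012792-5012991, minus strand: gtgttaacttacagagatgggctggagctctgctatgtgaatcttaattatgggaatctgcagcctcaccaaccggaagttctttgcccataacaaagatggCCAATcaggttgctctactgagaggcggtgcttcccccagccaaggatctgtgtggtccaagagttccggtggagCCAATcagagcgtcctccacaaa
E2f8, chr7:48881597-48881796, minus strand: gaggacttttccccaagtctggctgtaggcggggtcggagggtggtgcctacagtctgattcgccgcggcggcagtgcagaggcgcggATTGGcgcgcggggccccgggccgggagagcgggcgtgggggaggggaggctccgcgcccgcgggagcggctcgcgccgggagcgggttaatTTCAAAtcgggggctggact
E2f2, chr4:136172074-136172273, plus strand: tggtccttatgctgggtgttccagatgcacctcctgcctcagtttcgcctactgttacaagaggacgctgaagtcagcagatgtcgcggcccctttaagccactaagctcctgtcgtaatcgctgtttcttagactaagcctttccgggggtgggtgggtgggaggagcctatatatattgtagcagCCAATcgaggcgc
Brca2, chr5:150522421-150522620, plus strand: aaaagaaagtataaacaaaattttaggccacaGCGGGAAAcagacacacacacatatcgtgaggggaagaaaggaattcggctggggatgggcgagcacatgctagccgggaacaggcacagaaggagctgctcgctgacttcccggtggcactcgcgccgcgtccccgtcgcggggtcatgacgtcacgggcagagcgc
The promoters of Mcm10 and E2f2 hold CCAAT letters in this stretch, that of E2f8 holds both CCAAT and TTTGAA letters, and that of Brca2 holds an E2F sequence on its minus strand. The window of E2f2 also holds an E2F sequence, at bases 40 to 47 after the start and so outside the stretch shown. Pole and Fancd2 had no window. Fanci, which differed more than Mcm10 but was not in the pair of its list, had a window with none of these letters. The next pair was chosen after the search, as the members with most E2F matches in the stretch shown (3 in Mcm6 and 2 in Mcm5). It is thus the extreme of the search and not typical of the members.
Mcm6, chr1:128359706-128359905, minus strand: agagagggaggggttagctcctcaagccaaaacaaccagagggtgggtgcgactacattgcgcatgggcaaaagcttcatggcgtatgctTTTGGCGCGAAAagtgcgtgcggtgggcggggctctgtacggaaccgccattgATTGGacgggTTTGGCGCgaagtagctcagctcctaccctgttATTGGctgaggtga
Mcm5, chr8:75109309-75109508, plus strand: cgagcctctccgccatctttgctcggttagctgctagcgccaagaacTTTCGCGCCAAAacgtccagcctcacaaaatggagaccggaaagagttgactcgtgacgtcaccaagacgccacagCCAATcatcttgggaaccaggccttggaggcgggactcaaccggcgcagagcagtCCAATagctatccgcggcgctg
In Mcm6 and Mcm5 the capitals before the first CCAAT box are 2 overlapping E2F matches, read from opposite strands. The stretch of Mcm5 runs past the start of its RefSeq span (75109468). An E2F sequence stood in the windows of 11 of the 33 members (33.3%) and of 456 of the 12100 genes (3.77%). It was found in 6 of 15 replication windows (40.0%), 1 of 3 E2F windows and 4 of 15 repair and checkpoint windows (26.7%). CCAAT letters stood in 21 of the 33 member windows (63.6%), against 38.6% of all windows. TTTGAA letters stood in 4 of the 33 (12.1%), against 12.5% of all. A match of letters is a description, and no match says only that these letters are not in this window.

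Several facts of the whole table bear on every result below. Each value gives, in log2 units, how far a gene lies from a centre of its own that the sources do not define, so levels of different genes cannot be ranked, and sequencing depth is unknown because the table holds no counts. Of 6 epithelial markers (Epcam, Cdh1, Krt8, Krt18, Cldn3, Cldn7), all 6 were lower in 2151R than in 2208L, and their mean per sample, each gene relative to its mean over the 15 samples, ran from -4.34 to -3.27 in 2151R, stood at -7.26 in T11 and ran from 1.99 to 2.84 in 2225L and 2208L. Epithelial markers of the labelled tissue were thus far lower in 2151R and T11 than in 2225L and 2208L. On the same scale, the mean of 8 macrophage markers ran from 0.86 to 1.18 in 2151R and from -0.81 to 0.16 in 2208L. Skeletal muscle markers reached 6.12 in 2151R replicate 3 and 9.16 and 8.61 in 2208L replicates 6 and 8, above every other sample. In such bulk tissue, fewer cells of a type and less RNA per cell cannot be told apart, and the part of these other cells in the results below was not tested. Library numbers of 2151R, of the PBS samples and of the 3day nt samples lie in separate ranges, so what comes with a model or subset and what comes with a library range cannot be told apart. Trp53 averaged 0.19 in 2151R and -0.09 in 2208L, with no sample outside the label to compare, so the table does not check the null genotype.

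The first comparison sets 2151R against 2208L, the models with most samples. In 2151R, 21 of the 39 members were higher, 1 was lower and 17 did not pass the test, which calls a gene at a limma adjusted p under 0.05 over all 17271 genes. Among all genes, 26.1% were called higher in 2151R and 22.7% lower, together 48.8%. The median difference of the members was 0.59 on the log2 scale and that of all genes was 0.10. The values of 14 members lay wholly above those of 2208L, where 20.6% of all genes did, and 0 lay wholly below, where 18.2% of all genes did (38.8% in either direction). The members that rose most were E2f8, Pole, Fancd2, Brca2, E2f2, Fanci and Mcm10, each at least doubled, and Rrm2 was the member that fell.

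**Figure D1:**
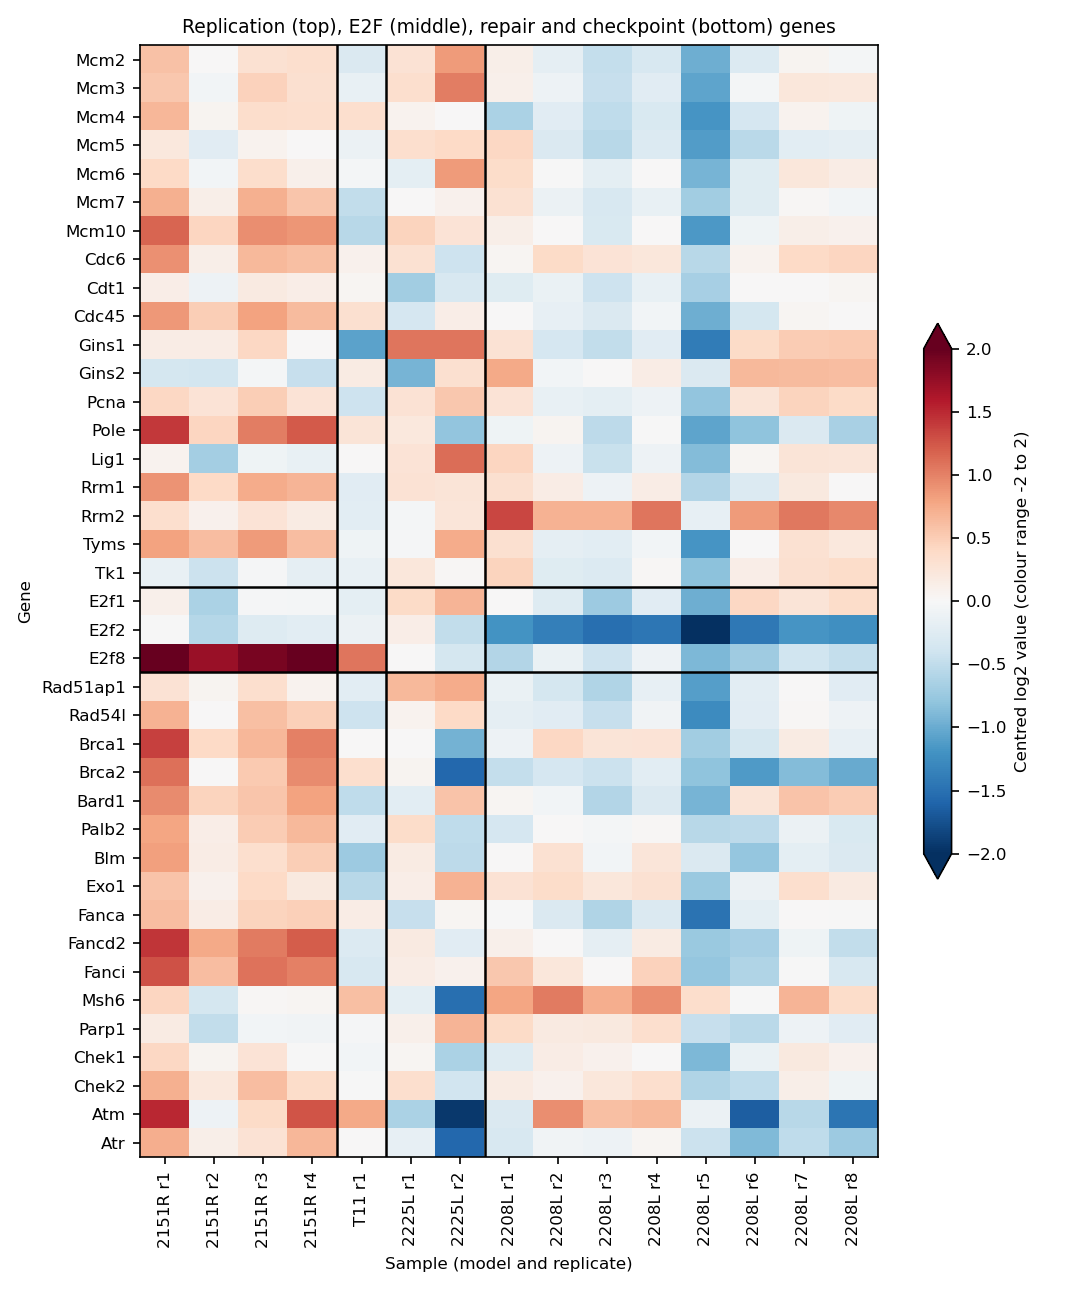
Centred log2 value of each of the 39 members (rows, in 3 blocks) in each of the 15 samples (columns, by model), with red above and blue below the reference level of the gene and the colour range limited to -2 to 2. The 4 columns of 2151R are red for most rows, replicate 5 of 2208L is the bluest column, and E2f2 and E2f8 stand out by model.

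Among the E2F factors, E2f8, an atypical member that represses E2F targets, gave the largest difference of the 39. Its values were 2.46, 1.73, 1.89 and 2.06 in 2151R, 1.07 in T11, and 0.00 and -0.35 in 2225L. In 2208L they ran from -0.89 through a median of -0.45 to -0.10. All 4 values of 2151R lay above every other sample, and T11 stood between them and the rest. The difference between 2151R and 2208L was 2.50 ± 0.18 (SE, n = 4 and 8), or 5.66-fold (limma, adjusted p = 1.09e-07). For the activator E2f2 the model set apart was 2208L. Its values in 2151R were -0.01, -0.58, -0.26 and -0.22, that in T11 was -0.12, and those in 2225L were 0.14 and -0.50. All of these exceeded the 8 values of 2208L, which ran from -2.05 through a median of -1.40 to -1.18. E2f2 was 1.16 ± 0.18 higher in 2151R (limma, adjusted p = 0.000167). E2f1, the founding activator of the family, did not follow either pattern. It was at 0.11, -0.63, -0.02 and -0.03 in 2151R and from -0.98 through -0.12 to 0.42 in 2208L, with groups that overlap fully (difference -0.003, limma, adjusted p = 0.994).

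**Figure D2:**
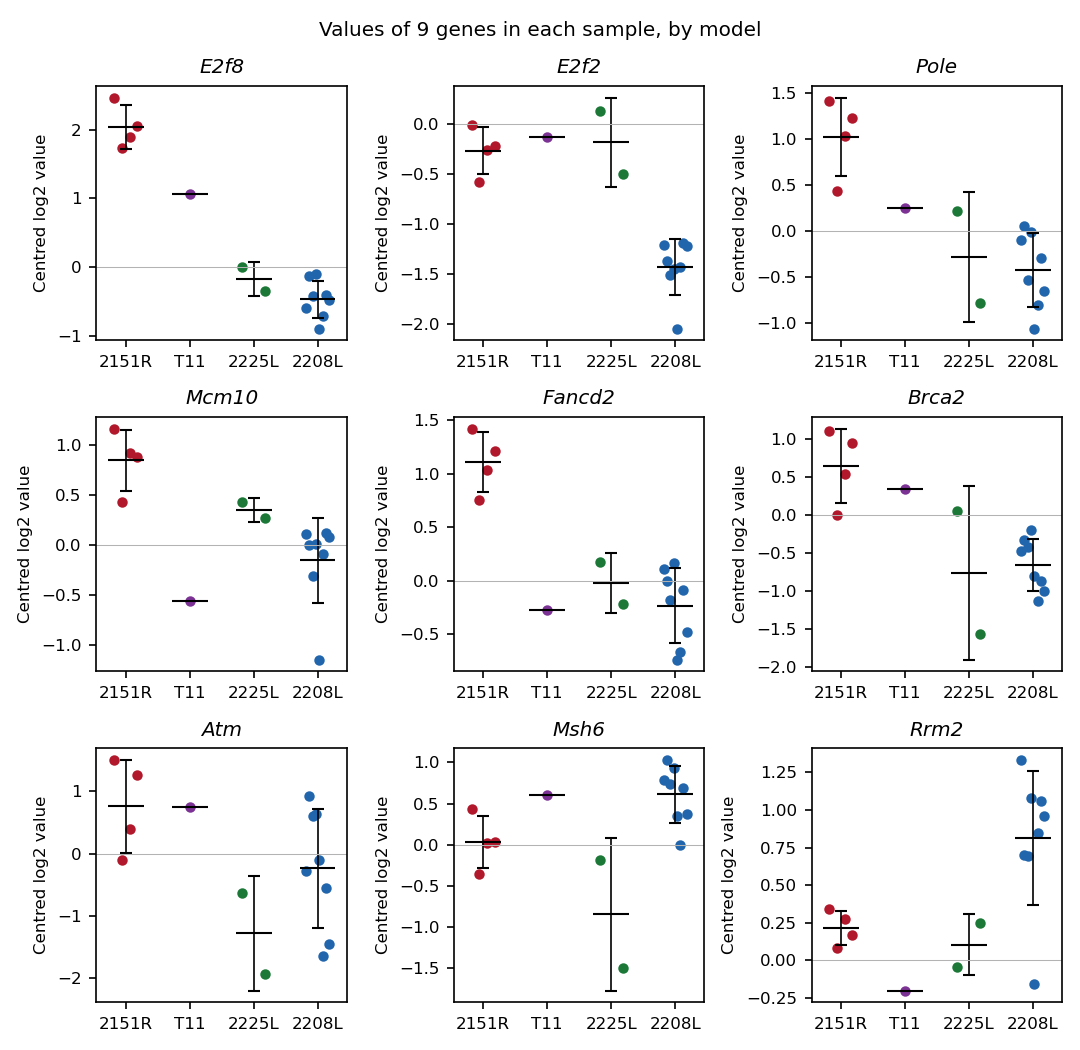
Centred log2 values of 9 members in each sample (points, spread sideways for visibility) with the mean of the model (wide line) and its SD (error bars, where a model has more than 1 sample). E2f8 separates 2151R from the other samples, E2f2 separates 2208L, and the 2 samples of 2225L lie far apart for Brca2, Atm and Msh6.

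Of the 19 replication genes, 8 were higher in 2151R, 1 was lower and 10 did not pass, against 26.1% and 22.7% of all genes. Their median difference was 0.41. Pole, the leading-strand polymerase, led them. It was at 1.42, 0.44, 1.03 and 1.23 in 2151R and ran from -1.06 through -0.41 to 0.05 in 2208L, so the groups did not overlap. The difference was 1.45 ± 0.27 (SE), or 2.73-fold (limma, adjusted p = 0.000523). Mcm10, the firing factor, was at 1.17, 0.44, 0.92 and 0.89 in 2151R, and its 8 values in 2208L ran from -1.14 to 0.12. It was higher by 1.003 ± 0.23 (limma, adjusted p = 0.00269). Cdc45, which joins the loaded ring, was at 0.87, 0.49, 0.80 and 0.63 in 2151R and between -0.98 and 0.04 in 2208L. Here again no value of 2208L reached the lowest of 2151R, and the difference was 0.92 ± 0.19 (limma, adjusted p = 0.00132).

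Within the helicase ring itself, 3 of the 6 subunits were called. Mcm4 was higher by 0.75, Mcm7 by 0.68 and Mcm2 by 0.57, all called, while Mcm3, Mcm5 and Mcm6 had differences of 0.48, 0.36 and 0.28 and did not pass. The loaders Cdc6 (0.41) and Cdt1 (0.28) did not pass either. Neither GINS subunit passed, and they lay on opposite sides of 0, at 0.27 for Gins1 and -0.62 for Gins2. In all, 5 of the 12 licensing and helicase genes were called, each of them higher. Of the clamp and ligase, Pcna was at 0.34 and Lig1 at -0.14, neither called.

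The genes of nucleotide supply split. Rrm1, the large subunit of ribonucleotide reductase, was higher in 2151R by 0.70 and Tyms by 0.82, both with groups that did not overlap. Rrm2, the small subunit, fell, with values of 0.34, 0.08, 0.27 and 0.17 in 2151R and a range from -0.16 through 0.90 to 1.34 in 2208L. Replicate 5 of 2208L, the lowest sample, lay below all 4 samples of 2151R, and the other 7 lay above them. The difference of Rrm2 was -0.60 ± 0.22 (limma, adjusted p = 0.0406), and it failed to pass without any 1 of the samples 2151R replicates 1 to 4 or 2208L replicates 1, 3, 4, 6, 7 and 8. Tk1, the salvage kinase, was at -0.19 and did not pass.

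Of the 17 repair and checkpoint genes, 11 were higher in 2151R, 0 were lower and 6 did not pass, against 26.1% and 22.7% of all genes. Their median difference was 0.75. Without 2151R replicate 1, 4 of them and 7 replication genes were called higher, against 20.5% of all genes. With only the samples titled NT, nt or PBS, these counts were 4 and 5, against 15.4%. At an unadjusted limma p under 0.05, 12 of the 17 were higher and 1 was lower, against 8 and 2 of the 19 replication genes. No share of all genes was taken at this unadjusted cut. All 3 Fanconi anaemia genes rose. Fancd2 was at 1.42, 0.76, 1.03 and 1.22 in 2151R and ran from -0.74 through -0.13 to 0.16 in 2208L, with no overlap, and it was higher by 1.35 ± 0.20 (2.54-fold; limma, adjusted p = 0.000114). Fanci, its partner in the marked pair, was at 1.27, 0.62, 1.08 and 1.005 in 2151R, above the highest 2208L value of 0.55, and differed by 1.05 ± 0.24 (limma, adjusted p = 0.00299). Fanca differed by 0.78, and this call was lost without 2151R replicate 1 or replicate 4.

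Of the 8 homologous recombination genes, 7 rose and Exo1 (0.21) did not pass. Brca2, which delivers the recombinase to DNA, was at 1.09, 0.00, 0.53 and 0.94 in 2151R and ran from -1.13 through -0.65 to -0.21 in 2208L. Its groups did not overlap, and it was higher by 1.30 ± 0.30 (2.46-fold; limma, adjusted p = 0.00278). Brca1 was higher by 0.88, Rad54l by 0.76, Palb2 by 0.75, Bard1 by 0.74, Blm by 0.59 and Rad51ap1 by 0.53. Without 2151R replicate 1, the calls of Brca1, Rad54l, Bard1, Blm and Rad51ap1 were lost and those of Brca2 and Palb2 were not. Among the kinases only Atr was called (0.83), a call that was lost without 2151R replicate 1 or 4. Chek2 (0.51, limma, adjusted p = 0.0566), Chek1 (0.28) and Atm (0.999 ± 0.51) did not pass. Atm was scattered within both models, from -0.10 to 1.504 in 2151R and from -1.64 to 0.92 in 2208L. The mismatch repair gene Msh6 (-0.58) and the break sensor Parp1 (-0.09) lay on the other side of 0 and were not called.

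**Figure D3:**
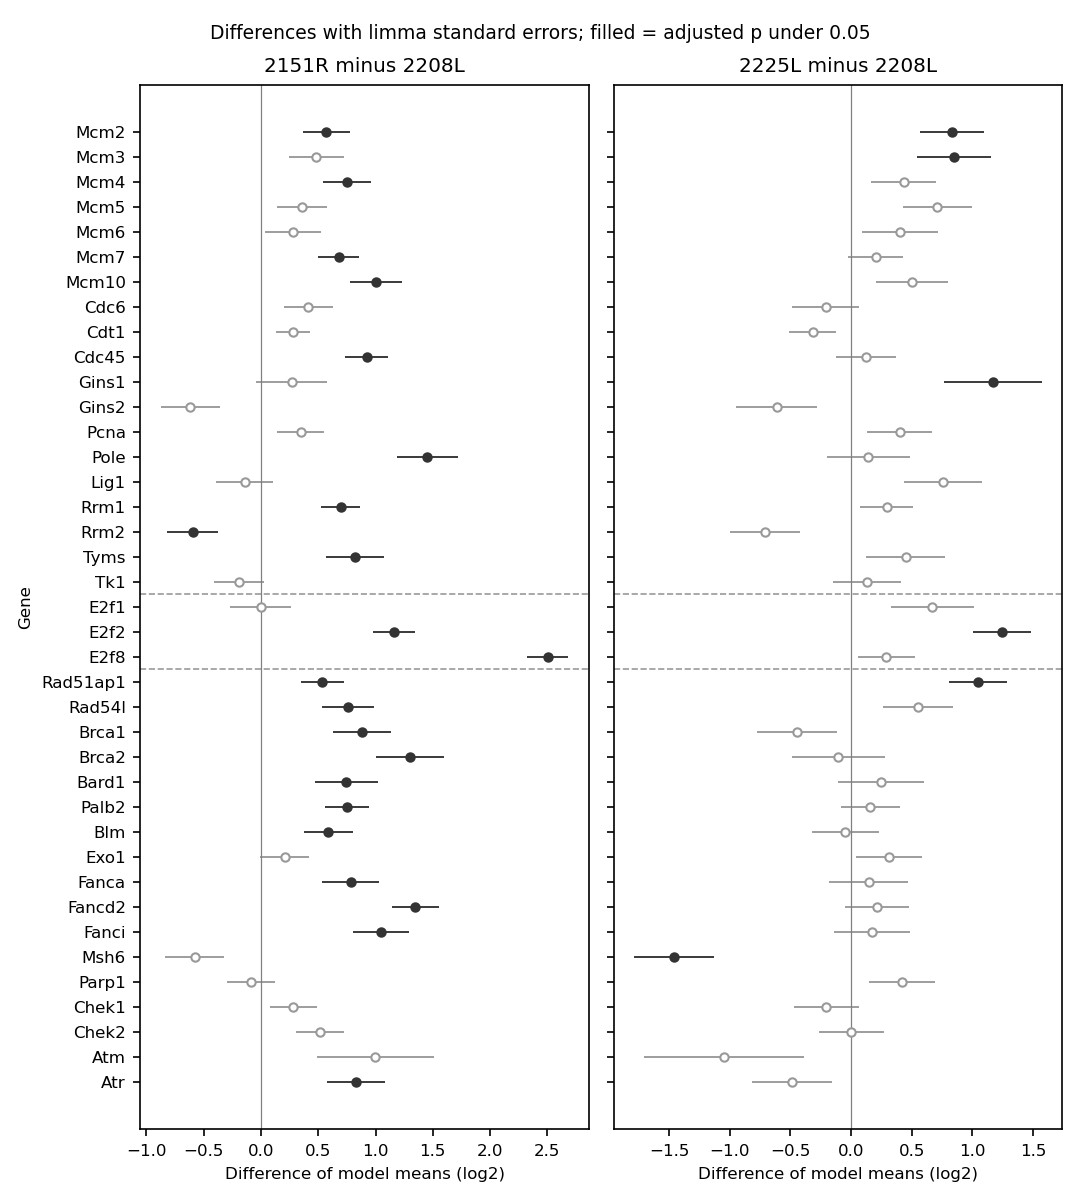
Difference of model means (log2) with its limma standard error for each member, 2151R minus 2208L at left and 2225L minus 2208L at right, with filled points for adjusted p under 0.05 and dashed lines between the 3 lists. At left 21 members are filled above 0 and 1 below, and at right 5 above and 1 below.

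Other genes of the same pathways, from a list of 145 that holds no member, were called higher in 2151R in 69 cases and lower in 13. Of all genes, 26.1% were called higher and 22.7% lower. The median difference of the 145 was 0.40. By pathway, 25 of 54 replication genes were higher and 1 lower, and 34 of 70 repair genes were higher and 8 lower. Homologous recombination had 13 of 19 higher and 0 lower, whereas nucleotide excision repair had 3 of 11 higher and 4 lower. Rpa3, a subunit of the single-strand binding protein, rose most (2.34 ± 0.27), followed by the lesion bypass polymerase Polk (1.86) and the pocket protein Rbl1 (1.63). Ung, which removes uracil from DNA, fell most (-1.60), followed by the repair helicase Ercc2 (-1.47) and the repressor E2f6 (-1.10). For comparison, 15 of 18 mitosis genes were higher and 0 lower. At an unadjusted limma p under 0.05, for which no share of all genes was taken, 16 were higher and 0 lower. The median of the mitosis genes was 0.88, so genes of division stood further above 2208L than the median member did.

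The comparison of 2225L with 2208L rests on 2 samples of 2225L. In 2225L, 5 of the 39 members were higher, 1 was lower and 33 did not pass, against 15.6% of all genes higher and 17.3% lower (32.9% in either direction). Groups did not overlap for 7 members above and 1 below, and for 15.7% and 16.0% of all genes (31.7% together). The share of members called was thus close to that of all genes upward and below it downward. The median difference of the members was 0.21 and that of all genes -0.04. The members that rose were Mcm2 (0.84), Mcm3 (0.85), Gins1 (1.17), E2f2 (1.24) and Rad51ap1 (1.05), and the member that fell was Msh6 (-1.46). The libraries of 2225L replicate 2 and 2208L replicate 1 share the title word ROSEN. With that word as a covariate, the calls of Mcm2, Mcm3 and Gins1 were lost, and 2 members were called higher and 3 lower, against 14.9% and 16.8% of all genes. Of 6 neutrophil markers 5 were lower in 2225L, with a mean from -2.11 to -1.81 there and from -0.81 to 1.80 in 2208L. Of 8 macrophage markers 4 were lower, with a mean from -1.73 to -0.96 in 2225L.

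E2f2 kept its call in 2225L under every alternative tried, with differences from 0.93 to 1.62. Rad51ap1, a partner of the recombinase, was at 0.65 and 0.75 in 2225L and ran from -1.10 through -0.22 to 0.00 in 2208L. These groups did not overlap, and the difference was 1.05 ± 0.24 (2.06-fold; limma, adjusted p = 0.0048). Gins1, of the GINS complex, was nearly equal in both samples of 2225L, at 1.07 and 1.08, above the highest 2208L value of 0.53. Its call (1.17 ± 0.40, limma, adjusted p = 0.04) was lost without either sample of 2225L, and without 2208L replicate 2, 3 or 4. Mcm2 and Mcm3 were not called without 2225L replicate 2. Without that sample the median difference of the replication genes was 0.27, against 0.40 with it. The count of 5 higher became 3 without 2208L replicate 2, 3 or 4, where 14.0% to 14.5% of all genes were called higher. Msh6, which recognises mismatched bases, was at -0.19 in replicate 1 and -1.50 in replicate 2, against -0.01 to 1.03 in 2208L. Both values lay below every 2208L sample, yet the call was lost without 2225L replicate 2. Of the other pathway genes, 30 of 145 were higher and 11 lower, against 15.6% and 17.3% of all genes. Nhej1 of end joining (1.92), Fance of the Fanconi core (1.61) and Rpa3 (1.54) rose most, and Rb1 (-2.21), E2f6 (-1.47) and Xrcc5 (-1.27) fell most. Of the mitosis genes, 9 of 18 were higher and 0 lower.

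Set against 2151R, which enters the comparison above only through the shared spread, 2225L had 1 member higher, 9 lower and 29 not called. Among all genes, 22.8% were called higher and 25.8% lower (48.6% in either direction), so the share of members called lower was close to that of all genes and the share called higher was below it. Groups did not overlap for 6 members above and 12 below, and for 28.9% and 33.4% of all genes (62.4% together). The 9 that were lower were Atm (-2.05), E2f8 (-2.21), Brca2 (-1.40), Brca1 (-1.33), Atr (-1.32), Pole (-1.31), Fancd2 (-1.13), Cdc45 (-0.80) and Cdt1 (-0.59). The member that was higher was Lig1 (0.90 ± 0.35, limma, adjusted p = 0.0496), and its call was lost without any 1 of the 4 samples of 2151R or without 2225L replicate 2. Repair and checkpoint genes made up 5 of the 9, with a median of -0.63 over their 17, and the replication genes had a median of -0.11.

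Both samples of 2225L differed strongly for several of these genes. Brca2 was at 0.05 in replicate 1 and -1.57 in replicate 2, Atr at -0.16 and -1.57, and Atm at -0.63 and -1.94. Brca1 was at 0.01 and -0.95, and Pole at 0.22 and -0.78. In each of these cases replicate 2, titled ROSEN, was the lower one. Among the other members called lower, E2f8 and Fancd2 were lower in replicate 2 too. Cdc45 (-0.34 in replicate 1 and 0.14 in replicate 2) and Cdt1 (-0.69 and -0.33) were higher there. Without replicate 2 the median difference of the repair and checkpoint genes from 2151R was -0.37, and without replicate 1 it was -0.90. E2f8 was the member called in every alternative tried, with differences from -2.38 to -1.92. Of the other pathway genes 16 of 145 were higher and 36 lower, against 22.8% and 25.8% of all genes. They were led downward by Polk (-2.94), Xrcc5 (-2.29) and Gen1 (-1.98) and upward by Ung (2.44), Nhej1 (2.07) and the cyclin Ccne1 (1.94). Both comparisons of 2225L share its 2 samples.

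T11 was a single sample, and its values carry no test. Against 2151R, 26 of the 39 members lay below the lowest of the 4 samples and 2 above the highest, with a median difference of -0.46. The same held for 30.8% and 39.9% of all genes, whose median difference was 0.09. The members below 2151R included Mcm10 (-0.55 in T11), Fancd2 (-0.28), Fanci (-0.33), Rrm1 (-0.23), Brca1 (0.00) and Gins1 (-1.07), and Msh6 (0.60) and Gins2 (0.17) were above it. Against 2208L the members of T11 lay on both sides, 21 of 39 above the 2208L mean and with a median difference of 0.01. Their values were above the 2208L range for 8 members and below it for 1, while 35.8% of all genes lay above and 21.7% below. The 8 were Mcm4, Cdt1, Cdc45, Pole, E2f2, E2f8, Brca2 and Fanca, and the 1 below was Rrm2 (-0.20). Against the range of both 2225L samples, 21 members of T11 lay below and 10 above, as did 35.0% and 45.5% of all genes. The member furthest from 2208L was E2f8, whose value in T11 was 1.53 above the 2208L mean.

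By model means, 13 of the 17 repair and checkpoint genes were highest in 2151R and 3 in 2225L. The replication genes were divided, with 9 of 19 highest in 2151R and 8 in 2225L. T11 had the lowest mean of 14 members, 2208L of 13, 2225L of 8 and 2151R of 4, and this order of means makes no allowance for the spread.

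Inside 2208L, the samples titled PBS (n = 4) and 3day nt (n = 3) were compared in a fit of these 7 samples. In PBS, 3 members were higher, 5 lower and 31 not called, against 17.4% of all genes higher and 16.5% lower (34.0% in either direction). Values in PBS lay wholly below those in 3day nt for 11 members, as they did for 23.8% of all genes. They lay wholly above for 3 members and for 3633 of the 17271 genes, and groups did not overlap in either direction for 44.8% of all genes. These shares of members were below that of all genes upward and close to it downward. The replication genes leaned one way, since 18 of 19 had a difference below 0, with a median of -0.40, and 3 of them were called. The repair and checkpoint genes had a median of 0.18, and 3 were called higher and 1 lower. Without 2208L replicate 5 these medians were -0.23 and 0.41, and without replicate 6 that of repair and checkpoint genes was 0.07. With replicates 6 and 8, the samples of high muscle markers, both left out, the medians were -0.52 and -0.10.

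The GINS subunits, the clamp, E2f1 and Bard1 were the lower ones in PBS. Gins2 was at -0.05, 0.00, 0.15 and -0.30 in PBS and at 0.65, 0.64 and 0.62 in 3day nt. Its groups lay apart, with a difference of -0.69 ± 0.13 (limma, adjusted p = 0.0103). Gins1 was at -0.34, -0.49, -0.23 and -1.39 in PBS and at 0.38, 0.51 and 0.53 in 3day nt, a difference of -1.09 ± 0.28. Differences of -0.67 for Pcna, -0.89 for E2f1 and -0.91 for Bard1 were also called, each with groups that did not overlap. The damage sensors Atm and Atr went the other way. Atm was at 0.92, 0.60, 0.64 and -0.11 in PBS and at -1.64, -0.55 and -1.46 in 3day nt, and was higher in PBS by 1.73 ± 0.34 (3.32-fold; limma, adjusted p = 0.0117). Atr was higher by 0.56 and Brca2 by 0.56. Without 2208L replicate 8, the member calls fell to 0 higher and 1 lower, and all-gene calls to 7.89% and 5.89%. Without replicate 3, the member calls were 1 and 1, and 22.3% of all genes were called in either direction. Member counts higher and lower were 1 and 4 without replicate 2 (22.5% of all genes) and 1 and 6 without replicate 4 (27.9%). They were 4 and 6 without replicate 5 (39.4%), 1 and 2 without replicate 6 (17.1%), and 2 and 2 without replicate 7 (34.5%). With all 7 samples this share was 34.0%, so the calls of all genes changed too. Muscle markers differed between these groups too, from -4.27 to 1.66 in PBS and from 0.58 to 9.16 in 3day nt. Of 6 neutrophil markers, 5 were higher in PBS, with a median difference of 1.93, and their mean ran from 0.78 to 1.80 in PBS and from -0.81 to 0.54 in 3day nt. Of 5 B cell markers, 2 were lower in PBS, and their mean ran from -0.83 to -0.48 in PBS and from 0.28 to 0.93 in 3day nt. The part of these cells was not tested. When replicates 6 and 8 were left out for their muscle markers, 3day nt kept 1 sample, assumed to vary like the others, and 0 members were called in either direction by limma, against 0.44% of all genes higher and 0.127% lower.

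Among the other pathway genes 13 of 145 were higher in PBS and 23 lower, against 17.4% and 16.5% of all genes. Of the 54 genes of the wider replication list, 12 were called, all of them lower. They were led by Rpa2 (-1.21) of the single-strand binding protein and by the thymidylate kinase Dtymk (-1.08), and Fancl (-1.18) fell with them. The crosslink nuclease Fan1 (1.67), Rb1 (1.25) and the helicase Wrn (0.92) were higher.

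To set replication against repair in each sample, the mean of each list was taken after subtracting the mean of each gene over the 15 samples. The replication mean exceeded the repair and checkpoint mean by 0.02 and 0.68 in the samples of 2225L and by 0.21 to 0.40 in 2208L 3day nt, and by 0.19 in 2208L replicate 1. It was below it by log2 differences of -0.26 to -0.22 in 2208L PBS, -0.35 to -0.07 in 2151R and -0.09 in T11. Inside 2208L alone the balance thus ran from -0.26 to 0.40. In the comparison of 2151R with 2208L, the replication median minus the repair median was -0.34, but with only the PBS samples of 2208L it was 0.11 and with only the 3day nt samples -0.37.

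**Figure D4:**
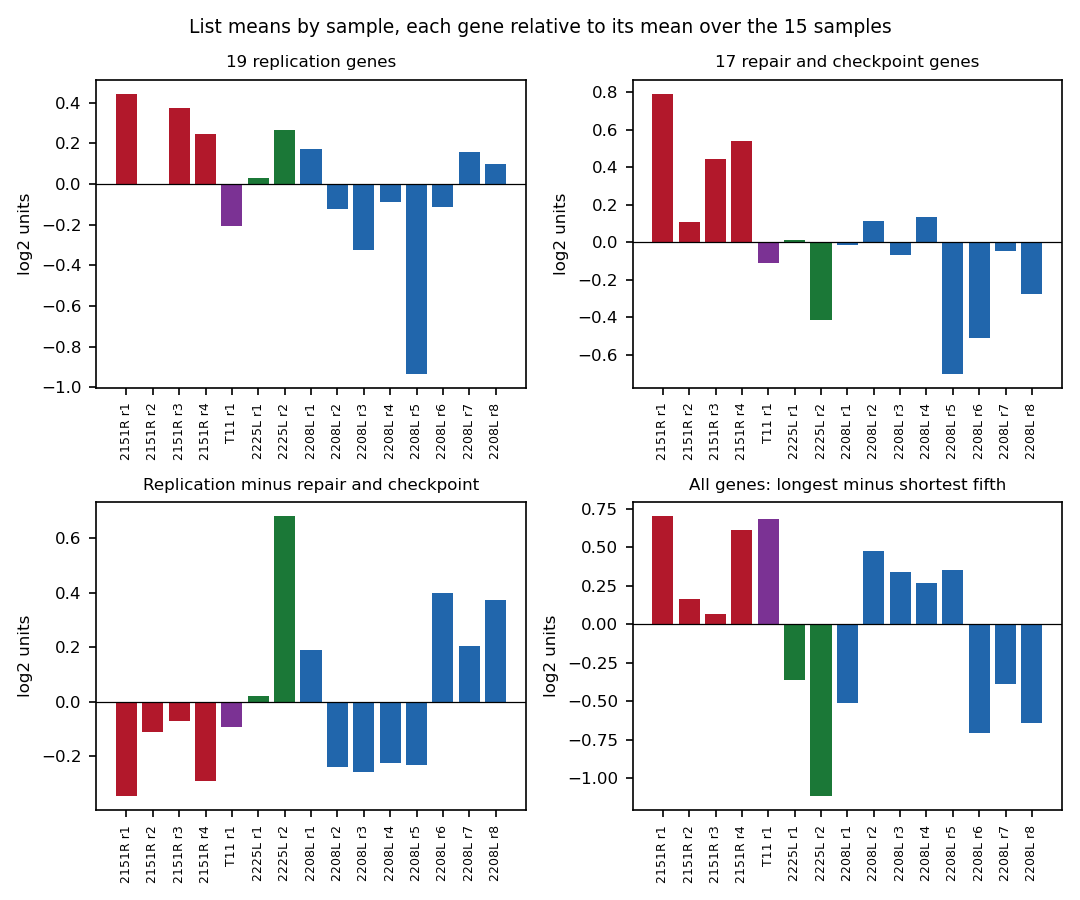
Bars give, for each sample (coloured by model), the mean of the 19 replication genes, the mean of the 17 repair and checkpoint genes, the first minus the second, and the median of all genes with transcripts of the longest class minus that of the shortest class (from 5103 and up to 1773 bases) (log2 units, each gene relative to its mean over the 15 samples). The replication minus repair bars are above 0 in 2225L, 2208L replicate 1 and 2208L replicates 6 to 8, which are the samples whose long minus short bar is below 0.

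Transcript length moved with this balance. The longest protein-coding transcript had a median of 3174 bases for replication genes and 4645 for repair and checkpoint genes, and 3097 for the 14428 genes of the table with a length (83.5%). Brca2 (10724 bases), Atm (9819) and Atr (8102) were the longest members and Gins1 (1087), Tk1 (1440) and Pcna (1518) the shortest. Genes were split by length into 5 classes of like size. Over all genes, the median difference of PBS from 3day nt rose from -0.57 among the shortest transcripts (up to 1773 bases) to 0.40 among the longest (from 5104 bases). The same medians ran from -0.18 to 0.29 for 2151R against 2208L, from 0.27 to -0.36 for 2225L against 2208L and from 0.48 to -0.64 for 2225L against 2151R. The longest stood below the shortest by medians of -1.12 in 2225L replicate 2 and -0.71 to -0.39 in 3day nt.

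A length trend was therefore taken out of each sample, a step added after the data were seen. The replication median minus the repair median then went from -0.34 to -0.09 for 2151R against 2208L, from 0.25 to 0.17 for 2225L against 2208L, from 0.52 to 0.24 for 2225L against 2151R and from -0.58 to -0.44 for PBS against 3day nt. In 2151R against 2208L, 21 members were then called higher, and 3 lower, against 27.3% and 29.0% of the 14428 genes with a length. These were not all the same members as before, since 3 calls were lost and 5 gained. Those higher held 10 replication and 9 repair and checkpoint genes, against 8 and 11 before. E2f8 (2.34), E2f2 (0.97), Mcm10, Pole, Cdc45, Fancd2, Fanci and Brca2 were among those called, and Mcm2, Bard1 and Fanca were not. In 2225L against 2151R, the calls of Pole, Brca2, Atm and Atr were lost. In PBS against 3day nt, those of Gins1, Pcna, Brca2 and Atr were lost, and those of Atm, Gins2, E2f1 and Bard1 were not.

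**Figure D5:**
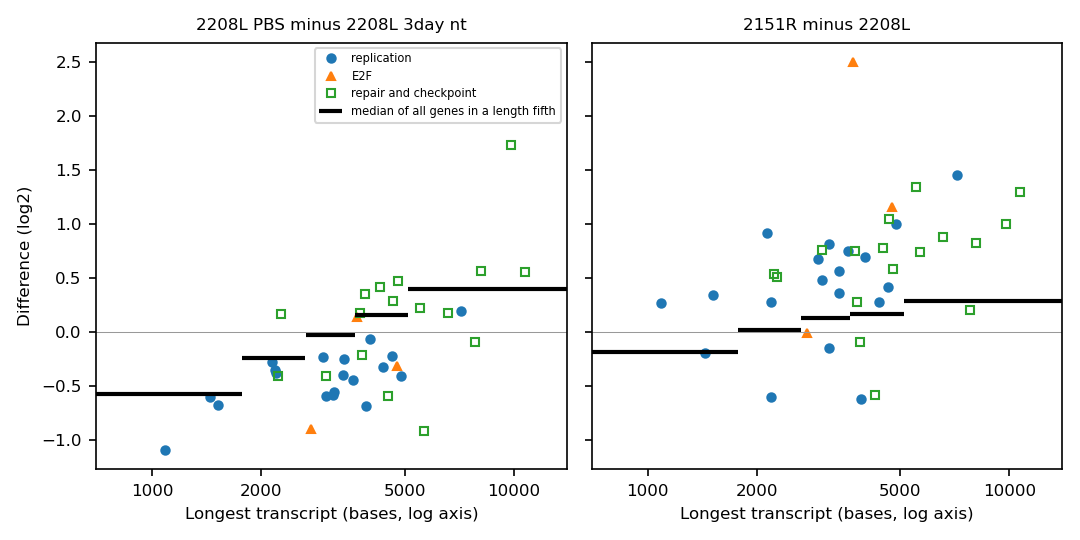
Difference in log2 value against the length of the longest protein-coding transcript (log axis, bases) for the 39 members, for 2208L PBS minus 3day nt at left and 2151R minus 2208L at right, with black bars for the median of all genes in each of 5 length classes. At left the bars climb from -0.57 to 0.40 and at right from -0.18 to 0.29, while most members of the right panel lie above the bar of their length.

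Single samples of 2208L and 2151R stood low or high for most members. Replicate 5 of 2208L, titled PBS, was the lowest of the 8 for 33 of the 39 members and replicate 6 for the other 6. Over all genes replicate 5 was the lowest for 35.0%, and after each sample was centred on its own median for 16.7% of all genes and 26 of the 39 members. Its replication mean was -0.94 and its mitosis mean -1.01, with the next lowest 2208L sample at -0.32 and -0.50. In 2151R, replicate 2 was the lowest of 4 for 36 of the 39 members (37.2% of all genes) and replicate 1 the highest for 31 (45.4%). Neither was titled NT. Without 2208L replicate 5, 20 members were called higher in 2151R and 2 lower, against 25.2% and 24.1% of all genes. Without 2151R replicate 1 the counts were 13 and 0, against 20.5% and 20.2%.

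Mitosis genes followed the same samples. The mean of the 18 mitosis genes ran from 0.34 to 0.80 in 2151R, was 0.34 and 0.31 in 2225L and -0.16 in T11, and ran from -1.01 to -0.12 in 2208L. The members' mean minus the mitosis mean lay between 0.10 and 0.20 in all 8 samples of 2208L, replicate 5 included, and was 0.04 in T11. It lay between -0.26 and -0.14 in 2151R and was -0.30 and -0.35 in 2225L. Relative to mitosis genes, the members were therefore lower in 2151R and 2225L than in every sample of 2208L.

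Neighbouring genes in the genome were used to see whether a member differed with its surroundings. For each member, the 30 nearest table genes on each side were taken where the chromosome held them (RefSeq, GRCm38.p6). E2f8 (chr7:48866429-48882073) differed by 2.50 between 2151R and 2208L, and its neighbours by a median of 0.23. Fancd2 (chr6:113531640-113597020) differed by 1.35 and its neighbours by -0.11, and Pole (chr5:110286319-110337468) by 1.45 and its neighbours by 0.30. Other members stood close to their surroundings. Rrm2 (chr12:24708254-24714146) was at -0.60 and its neighbours at -0.42 in this comparison, and at -0.71 and -0.77 in 2225L against 2208L. Lig1 (chr7:13277175-13311426) was at 0.90 in 2225L against 2151R and its neighbours at 0.89. E2f1 (chr2:154559400-154569892) was at 0.67 in 2225L against 2208L and its neighbours at 0.61, and Gins2 (chr8:120581266-120589075) was at -0.61 and its neighbours at -0.55. In that comparison Rrm2, E2f1 and Gins2 were not called, and the samples of 2225L had Gins2 on opposite sides of 0, at -0.93 and 0.32. Msh6 (chr17:87975050-87990892), the member that fell in 2225L, was at -1.46 with neighbours at -0.71. Copy number was not measured, and its part in these values was not tested.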

How the data were processed

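RNA-seq of 15 tumours was deposited as 1 table. Per the labels' protocols, RNA came from Qiagen RNeasy columns, and oligo-dT capture with the TruSeq chemistry gave the libraries. The submitters' processing notes name STAR, Salmon and the build mm10, with no role or order. The authors deposited centred log2 values, and the offset added before the logarithm, the reference samples and the scaling are not given in the sources used here. Folds are on the deposited log2 scale, where any such offset would shrink those of low genes by an unknown amount. The 17271 genes were fitted with limma 3.58.1 in R 4.3.3, without trend, as 1 fit of 15 samples with a mean per model, and the 7 PBS and 3day nt samples in a second fit. Benjamini-Hochberg adjusted p-values under 0.05 were called, with no minimum difference. The fit was tested on simulated data. No member had a value repeated between samples (0 of 39, against 727 genes). Replicates were numbered in accession order and pair nothing. Lengths came from GENCODE, and a lowess trend (span 0.3) was removed as an added alternative. Depth is unknown, so no counting error is given.

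The members and lists were chosen with earlier results of these data known. All members may be named. Values in every sample are given for the 3 replication and 3 repair members that differed most in 2151R against 2208L, for E2F members, and for others that a sentence turns on, chosen after their values were seen. From wider lists the 3 called genes with the largest difference each way are named. Scores and list medians carry no test. The alternatives tried were sample centring, quantile normalization, trend and robust moderation, sample weights, genes without repeated values, each sample left out, samples of high muscle markers left out, a minimum of 1 log2 unit, subsets by title, fits of the compared groups only, library prefix and transcript length.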

Additional observations from a re-analysis of the deposited data

Results flagged for a closer look

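Among 132 groups of 4 to 8 samples (each member and list mean in 2151R, 2208L and the PBS samples), 21 held a sample whose gap to its nearest neighbour was large for the range of the group (Dixon's criterion at 95%). Chance alone would give about 6.6 if the groups were separate. They are not, since members share the same samples and the PBS samples are part of 2208L. The count is therefore no test of these members, and no such count over all genes was made. Of the 21, 20 were 2208L replicate 5, a PBS sample, as the lowest.

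In the 8 samples of 2208L, replicate 5 stood apart for Mcm6 (-0.93, others from -0.24), Mcm10 (-1.14, others from -0.30), Cdc6 (-0.56, others from 0.03), Cdc45 (-0.98, others from -0.35), Rrm2 (-0.16, others from 0.69), Tyms (-1.18, others from -0.22) and E2f2 (-2.05, others from -1.51). It did so too for Rad54l (-1.26, others from -0.46), Exo1 (-0.73, others from -0.12), Fanca (-1.47, others from -0.61) and Chek1 (-0.90, others from -0.26). The mean of the replication genes (-0.94, others from -0.32) and of the mitosis genes (-1.01, others from -0.50) stood apart likewise.

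In the 4 PBS samples alone, replicate 5 stood apart for Cdc6, Tyms, Exo1 and Chek1 at the same values, and for Pcna (-0.79, others from -0.20), Brca1 (-0.69, others from 0.26) and Palb2 (-0.56, others from -0.04). The remaining one was Cdt1 in 2151R, where replicate 2 was at -0.10 and the others between 0.13 and 0.18.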

How the results depend on the processing

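No member reversed a called direction under any alternative. Calls held in all alternatives for 7 of 22 members in 2151R against 2208L (Mcm10, Pole, E2f2, E2f8, Brca2, Fancd2 and Fanci), 1 of 6 in 2225L against 2208L (E2f2), 1 of 10 in 2225L against 2151R (E2f8) and 0 of 8 in PBS against 3day nt. Unknown depth and groups of 1 to 4 samples, apart from 2208L as a whole, limit the precision. The causes of the changes were not tested.

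In 2151R against 2208L, 21 members higher became 7 with a minimum of 1 log2 unit and 11 with only the samples whose titles say NT, nt or PBS. They became 15 with high-muscle samples left out, 17 with 3day nt samples only and 27 with sample weights. With 1 sample left out the count was 13 to 21 (13 without 2151R replicate 1), and in the alternatives not named it was 20 to 22. The 1 lower became 2 with sample centring, 3 with quantile normalization, sample weights, the compared groups only, 3day nt samples only or the length trend removed, 0 with robust moderation, high-muscle samples left out, the minimum, the NT, nt or PBS titles or PBS only, and 0 to 2 with 1 sample left out. Among all genes, the share called higher ran from 15.0% with the minimum to 35.0% with weights over these alternatives. The share called lower ran from 14.9% to 30.8% with the same settings at the ends. The replication minus repair median, -0.34, became 0.11 with PBS only, and -0.36 to -0.29 with 1 sample left out.

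In 2225L against 2208L, 5 higher became 3 with quantile normalization or the minimum, 1 with weights, 2 with the compared groups only or library prefix, 9 with PBS only or the length trend removed, and 2 to 6 with 1 sample left out. The 1 lower became 2 with centring, quantile normalization or PBS only, 3 with prefix or length, and 1 to 2 with 1 sample left out. In the alternatives not named, 4 to 6 members were higher. Over these alternatives the share of all genes called higher ran from 5.55% with weights to 22.0% with length. The share called lower ran from 6.95% with weights to 22.9% with PBS only. The median gap, 0.25, became -0.058 with 3day nt only and 0.071 to 0.67 with 1 sample left out.

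In 2225L against 2151R, 1 higher became 2 with centring, 4 with length, 0 with quantile normalization, weights, high-muscle samples left out, the minimum or the NT, nt or PBS titles, and 0 to 1 with 1 sample left out. The 9 lower became 3 with weights, 5 with length and 3 to 12 with 1 sample left out. In the alternatives not named for the members lower, that count was 6 to 10. Over these alternatives the share of all genes called higher ran from 14.6% with weights to 28.7% with length. The share called lower ran from 15.8% with weights to 26.4% with genes without repeated values. The median gap, 0.52, became 0.24 with length and 0.086 to 0.93 with 1 sample left out, the ends being 2225L without replicate 2 and without replicate 1.

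In PBS against 3day nt, 3 higher became 11 with weights, 0 with high-muscle samples left out, 1 with the minimum or length, and 0 to 4 with 1 sample left out. The 5 lower became 9 with centring or quantile normalization, 14 with weights, 0 with high-muscle samples left out, 1 with the minimum, and 1 to 6 with 1 sample left out. In the alternatives not named for a direction, 2 to 4 members were higher and 5 to 6 lower. With weights 34.4% of all genes were called higher and 33.3% lower, so the counts of all genes rose with those of the members. The shares were 24.1% and 19.5% with centring, 21.9% and 18.7% with quantile normalization, and 6.98% and 5.8% with the minimum. With 1 sample left out, 13.8% to 39.4% of all genes were called in either direction. The median gap, -0.58, became -0.73 with weights, -0.41 with high-muscle samples left out, -0.44 with length and -0.67 to -0.54 with 1 sample left out. The median of T11 minus 2208L, 0.01, ran from -0.09 to 0.04 with 1 sample left out and from -0.29 to -0.04 in the other alternatives.

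No paired analysis was possible because no label ties a sample to one of another group by animal, and replicate numbers, given in accession order, pair nothing. The library prefix that 2225L and 2208L share entered as the covariate above.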
